A study of Homo sapiens with 6 samples.

Results

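The genes described here are NFE2L2, which encodes the transcription factor NRF2, and 8 genes counted among the targets of NRF2 or the stores of iron: HMOX1, NQO1, GCLM, GCLC, TXNRD1, SRXN1, FTH1 and FTL. Their Gene IDs in the tables are 4780 for NFE2L2, 3162 for HMOX1, 1728 for NQO1, 2730 for GCLM, 2729 for GCLC, 7296 for TXNRD1, 140809 for SRXN1, 2495 for FTH1 and 2512 for FTL. They were selected by gene symbol from the 17645 genes listed for each library, and all 9 were found and passed the filter on low values. RNA came from the established line MDA-MB-231, which was derived from a triple negative human breast cancer. Cells were transfected for 48 h with a control siRNA (siControl, 3 libraries) or with siRNA against RNF31 (siRNF31, 3 libraries). RNF31 encodes HOIP, the ligase that joins ubiquitin into linear chains as a member of LUBAC, and both groups share the line, the medium and the transfection. A single siRNA label stands for each group, so an effect of the siRNA sequence and an effect of losing RNF31 cannot be told apart. Nothing in the labels says that replicates were separate cultures, so the spread that the p-values measure may be technical.

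NRF2 is held at a low level by KEAP1, an adaptor that brings it to a CUL3 and RBX1 ubiquitin ligase. Oxidants and electrophiles disable KEAP1, and NRF2 then enters the nucleus, pairs with a small MAF protein (MAFF, MAFG or MAFK) and binds antioxidant response elements. Its control is largely at the protein level, which RNA does not show. BACH1 pairs with the same small MAF proteins, represses HMOX1 in particular and is released by heme. Heme oxygenase splits heme into biliverdin, carbon monoxide and iron, and ferritin, a shell of heavy (FTH1) and light (FTL) chains, stores the iron. Iron regulatory proteins, encoded by ACO1 and IREB2, bind iron-responsive elements, which blocks translation of ferritin mRNA and stabilizes the mRNA of the transferrin receptor TFRC.

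Promoter sequences are shown for the members that hold the core letters of the antioxidant response element, TGACNNNGC, upstream of a RefSeq start, since these letters are what NRF2 is known to read. RefSeq windows for GRCh38.p14, each from 250 bases before to 50 bases after a gene start, were found for 7 of the 9 genes, with 2 windows each for NFE2L2 and TXNRD1. HMOX1 and FTH1 had no window. On either strand, TGACNNNGC occurred in windows of 2 of the 7 members with a window, GCLM and TXNRD1. Among all genes that passed the filter on low values and had a window, 1818 held it and 7549 did not. Counted by window instead of by gene, it occurred in 13.3% of 35116 windows of all genes. Part of each member window with a match is printed 5′ to 3′ on the strand of the gene, with the matched letters in capitals. In GCLM (minus strand, chr1:93909431-93909514) the match is on the strand opposite to the gene and begins 34 bases before the start. In TXNRD1 (plus strand) the start farther upstream has a match 99 bases before it (chr12:104215630-104215738), and the other start has a match on the opposite strand 102 bases before it (chr12:104286880-104286988). The upstream TXNRD1 window holds another match that runs over the start and is not printed. None of the printed matches overlaps the AP-1 motif TGANTCA, which was found in 7.71% of all windows and in no window of a member.
GCLM: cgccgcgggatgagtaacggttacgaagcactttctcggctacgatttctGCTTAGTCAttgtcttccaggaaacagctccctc
TXNRD1, upstream start: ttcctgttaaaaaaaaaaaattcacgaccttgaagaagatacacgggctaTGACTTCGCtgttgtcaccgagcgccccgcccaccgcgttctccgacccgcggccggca
TXNRD1, downstream start: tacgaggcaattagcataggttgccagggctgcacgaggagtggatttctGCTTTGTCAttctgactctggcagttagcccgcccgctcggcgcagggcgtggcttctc

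A stretch from the first 50 bases after the FTL start (plus strand, chr19:48965336-48965358) holds the letters CAGTGN, shown in capitals. CAGTGN is the loop of an iron-responsive element, which in ferritin mRNA acts on translation, and RNA levels do not show translation. Those letters occurred on the transcript strand in the 50 bases after the start in 6.48% of all windows.
FTL: tcttgcttcaaCAGTGTttggac

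The libraries can be placed in a few numbers. RNF31 itself measured from 10.57 to 11.34 FPKM (fragments mapped to a gene, scaled by its transcript length and by the size of the library) in siControl and from 1.86 to 2.12 in siRNF31, which left 18.1% of the siControl mean. The change across the transcriptome was broad. Of 11346 genes tested, 26.6% were called higher and 36.5% called lower in siRNF31 (limma, adjusted p under 0.05), and 67.2% had no overlap between the groups. These percentages are the background for every count below. Over the tested genes the log2 fold change had a median of -0.06. Libraries of a group correlated at 0.993 or more, and within siRNF31 replicate 3 was the least like the others (0.994 and 0.995 against 0.998 for replicates 1 and 2). Across genes, which are not independent replicates, siControl replicate 1 and siRNF31 replicate 3 deviated from their group means together (r = 0.68), so results are also given without this pair where that changes a call. The mesenchymal markers of the line (VIM, CD44, AXL, CAV1 and LGALS1) were abundant, with a summed level from 6144 to 7030 FPKM over the 6 libraries. CD44 was called lower (550.4 ± 17.3 to 247 ± 3.35, log2 fold change -1.15), and the other 4 did not pass. Luminal markers summed to at most 2.59 FPKM. Erythroid markers summed to at most 0.44, from 4 of the 6 chosen, since HBA1 and AHSP were not among the genes listed. Myeloid markers, of interest because macrophages are rich in HMOX1 and ferritin, summed to 4.77 to 5.61 FPKM in siControl and 2.77 to 2.94 in siRNF31. The sum was mostly CSF1R (2.86 to 3.54 in siControl, 1.08 to 1.24 in siRNF31) and CD14, both called lower (log2 fold changes -0.92 and -0.56), while LYZ, CD163, PTPRC and ITGAM stayed below 1 FPKM. Endothelial markers summed to 1.48 to 1.84 FPKM in siControl and 0.79 to 0.93 in siRNF31. The part of these low signals in the results below was not tested.

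Among the 9 genes, HMOX1 and FTL were higher in siRNF31, GCLM and GCLC were lower, and 5 did not pass the test. HMOX1 rose to 347% of its siControl mean, while NFE2L2, NQO1, SRXN1, TXNRD1, GCLM and GCLC measured between 80.2% and 104% of theirs. The ferritin genes FTH1 and FTL measured 104% and 129%. The 2 genes called higher and the 2 called lower stand against the background of 26.6% and 36.5%, so neither count is more than the share found among all genes tested. The groups did not overlap for 4 of the 9, against 67.2% of all genes tested, so this count is not more than the background either. The median log2 fold change of the 9 genes was 0.02, against -0.06 for all genes tested.

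**Figure D1:**
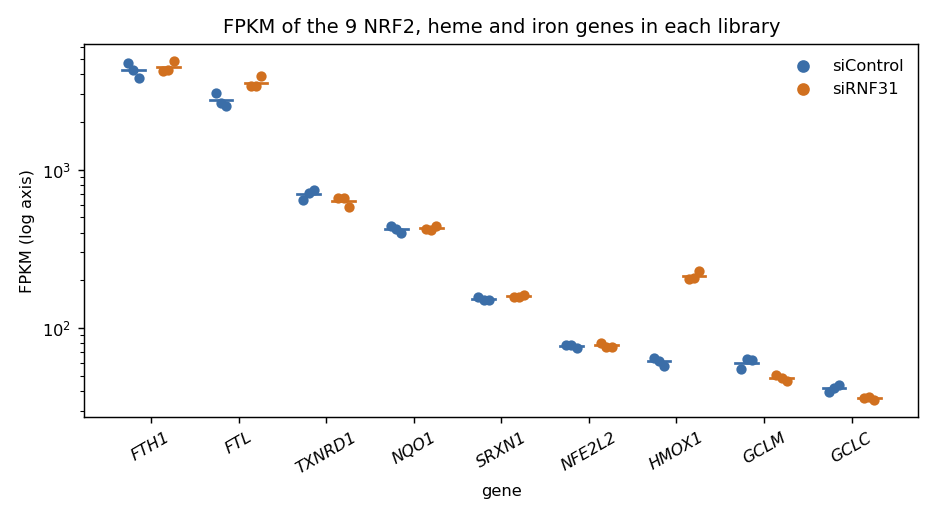
FPKM of the 9 genes in each library on a log axis, ordered by the siControl mean; points are libraries (3 per group) and short lines are group means. HMOX1 is the gene whose groups lie far apart, with siControl from 57.54 to 64.96 and siRNF31 from 205.08 to 229.28.

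The factor gene NFE2L2 measured 77.92, 77.64 and 75.19 FPKM in siControl replicates 1 to 3 and 80.71, 76.34 and 76.34 in siRNF31 replicates 1 to 3. The groups overlapped. The log2 fold change was 0.02 with a 95% confidence interval from -0.10 to 0.13 (limma, adjusted p = 0.80). On the fold scale the interval ran from 0.931 to 1.10, so a larger shift of the NFE2L2 transcript in either direction lay outside it.

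HMOX1, the inducible heme oxygenase, measured 64.96, 62.09 and 57.54 FPKM in siControl and 205.08, 205.90 and 229.28 in siRNF31. Every siRNF31 library was more than 3 times the highest siControl library. The mean went from 61.5 ± 3.74 to 213 ± 13.7 (SD, n = 3 each), a ratio of 3.47. On the log2 scale HMOX1 rose by 1.78, with a 95% confidence interval from 1.62 to 1.94 (limma, adjusted p = 2.44e-07), and 80 of the 11346 genes tested had a larger one. By its mean level HMOX1 moved from rank 1283 to rank 300 among the genes tested. HMOX2, the constitutive heme oxygenase, measured 19.5 ± 3.12 and 18.4 ± 0.966 FPKM and did not pass (adjusted p = 0.59). In bulk RNA, a rise in every cell and a larger rise in some cells cannot be told apart, nor can fewer cells of a type from less RNA per cell.

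The genes whose profile over the 6 libraries lay nearest to that of HMOX1 were NXF1, HLX and GADD45B, in that order. NXF1 encodes the main export receptor of mRNA, HLX a homeobox factor and GADD45B a stress-induced regulator of MAP kinase signalling. Their centred log2(FPKM + 1) values differed from those of HMOX1 by a root mean square of 0.023, 0.040 and 0.041, among 8272 genes compared. NXF1 went from 27.0 ± 1.52 to 95.3 ± 4.99 FPKM and GADD45B from 56.0 ± 4.45 to 187 ± 12.1. With 2 groups this likeness mostly restates a group difference of the same size, and it is given as a description.

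NQO1, a quinone reductase and a widely used readout of NRF2, measured 442.78, 421.89 and 398.85 FPKM in siControl and 422.26, 416.32 and 438.37 in siRNF31. The siRNF31 values all lay inside the siControl range. The log2 fold change was 0.02 with an interval from -0.13 to 0.16 (limma, adjusted p = 0.84).

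SRXN1, sulfiredoxin, which restores over-oxidized peroxiredoxins, measured 157.11, 149.49 and 149.63 FPKM in siControl and 156.98, 155.87 and 161.82 in siRNF31. The groups overlapped through siControl replicate 1. Its log2 fold change was 0.06 with an interval from -0.06 to 0.18 (adjusted p = 0.37).

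TXNRD1, the cytosolic thioredoxin reductase, measured 643.34, 709.08 and 744.61 FPKM in siControl and 662.95, 661.39 and 585.10 in siRNF31. Here siControl replicate 1 was the lowest of its group and siRNF31 replicate 3 the lowest of all. The log2 fold change was -0.13 with an interval from -0.32 to 0.05 (adjusted p = 0.18). Without those 2 libraries TXNRD1 passed as lower, at a log2 fold change of -0.13 and an adjusted p of 0.018.

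Both subunit genes of glutamate-cysteine ligase, the rate-limiting enzyme of glutathione synthesis, were lower. GCLM, the modifier subunit, measured 55.43, 63.31 and 62.47 FPKM in siControl and 50.34, 48.51 and 46.39 in siRNF31. Each siRNF31 library was below each siControl library, and the GCLM mean fell from 60.4 ± 4.33 to 48.4 ± 1.98, to 80.2% of siControl (log2 fold change -0.31, standard error 0.067, limma adjusted p = 0.0034). GCLC, the catalytic subunit, measured 39.19, 42.05 and 43.77 FPKM in siControl and 36.17, 36.82 and 34.88 in siRNF31. The groups did not overlap here either, and the GCLC mean fell from 41.7 ± 2.31 to 36.0 ± 0.987, to 86.3% of siControl (log2 fold change -0.21, adjusted p = 0.014). Without siControl replicate 2 the GCLC call was lost (limma, adjusted p = 0.056), as it was with the replicate number as a block (adjusted p = 0.068). GCLM thus carries the printed TGACNNNGC match and was lower, and TXNRD1, which carries 2 printed matches, did not pass. The log2 ratio of GCLM to GCLC was 0.52 ± 0.048 in siControl and 0.42 ± 0.041 in siRNF31, without overlap (exact permutation test, two-sided, p = 0.10, the smallest value that 3 against 3 libraries allow).

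**Figure D2:**
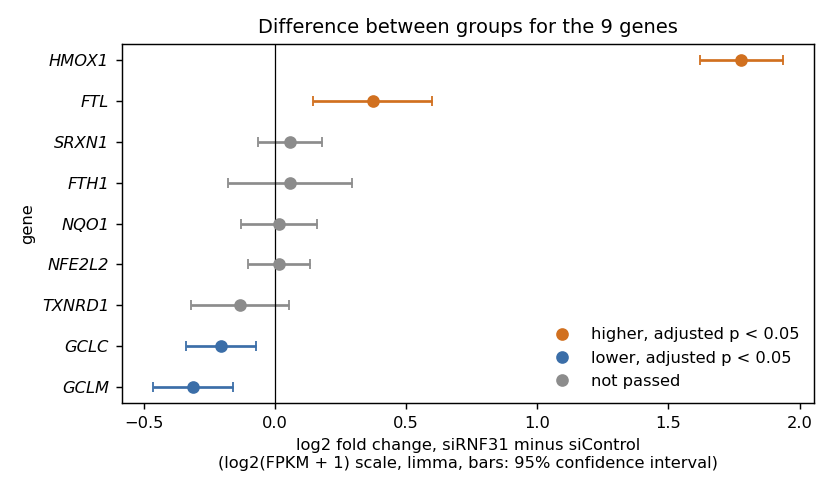
Log2 fold change of each of the 9 genes (siRNF31 minus siControl, log2(FPKM + 1) scale) with its 95% confidence interval from limma; colours mark the direction of genes that passed at an adjusted p under 0.05. HMOX1 sits at 1.78, FTL at 0.37, GCLC at -0.21 and GCLM at -0.31, and the intervals of the other 5 genes include 0.

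The ferritin genes were among the most abundant of all. FTH1 measured 4753.29, 4239.37 and 3826.66 FPKM in siControl and 4201.31, 4241.25 and 4870.72 in siRNF31. It was the most abundant gene tested in siControl and ranked 2 in siRNF31, and its groups overlapped across most of their range. The log2 fold change was 0.06 with an interval from -0.18 to 0.29 (limma, adjusted p = 0.65). FTL measured 3059.21, 2641.59 and 2525.83 FPKM in siControl and 3380.62, 3365.57 and 3887.33 in siRNF31. Every siRNF31 library was above every siControl library, and the mean rose from 2742 ± 281 to 3545 ± 297, to 129% of siControl (log2 fold change 0.37, standard error 0.099, adjusted p = 0.010). In each group the library of the pair that deviated together, siControl replicate 1 or siRNF31 replicate 3, had the highest FTH1 and FTL values. The limma adjusted p of FTL was 0.049 without siControl replicate 2. With the replicate number as a block it was 0.056, and the FTL call was lost. FTH1 and FTL have many processed pseudogenes that can share reads, so their levels are uncertain.

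The balance of the transcripts of the ferritin chains, not of the chains themselves, was also measured within each library. The FPKM ratio of FTH1 to FTL was 1.55, 1.60 and 1.52 in siControl and 1.24, 1.26 and 1.25 in siRNF31. Its log2 value went from 0.64 ± 0.042 to 0.32 ± 0.010, a difference of -0.31, and the groups did not overlap (exact permutation test, two-sided, p = 0.10, the smallest possible here). Together the pair held 1.60 ± 0.099% of all FPKM in siControl and 1.79 ± 0.087% in siRNF31 (exact permutation test, two-sided, p = 0.10). The ratio is taken within a library, so it does not depend on how libraries were scaled. Reads shared with pseudogenes leave it uncertain as well.

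Set side by side as FPKM, which is scaled by transcript length, the 9 genes kept nearly the same order in both groups. In siControl it was FTH1, FTL, TXNRD1, NQO1, SRXN1, NFE2L2, HMOX1, GCLM and GCLC. The neighbours HMOX1 and GCLM did not differ beyond their spread there, and the values of the other neighbours did not overlap. In siRNF31 HMOX1 moved from position 7 to position 5, above SRXN1 and NFE2L2, and no neighbours overlapped.

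Genes around the members were read from 6 lists of the NRF2, heme and iron pathways. Of 126 genes listed, 125 were in the tables and 113 were tested. Of these, 22 were higher, 60 lower and 31 did not pass, or 19.5% higher and 53.1% lower against the background of 26.6% and 36.5%. Their median log2 fold change was -0.23, against -0.06 for all genes tested. Without siControl replicate 1 and siRNF31 replicate 3, 24 were higher and 64 lower. The background rose as well in that setting, from 3022 to 3401 genes higher and from 4141 to 4513 lower.

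**Figure D3:**
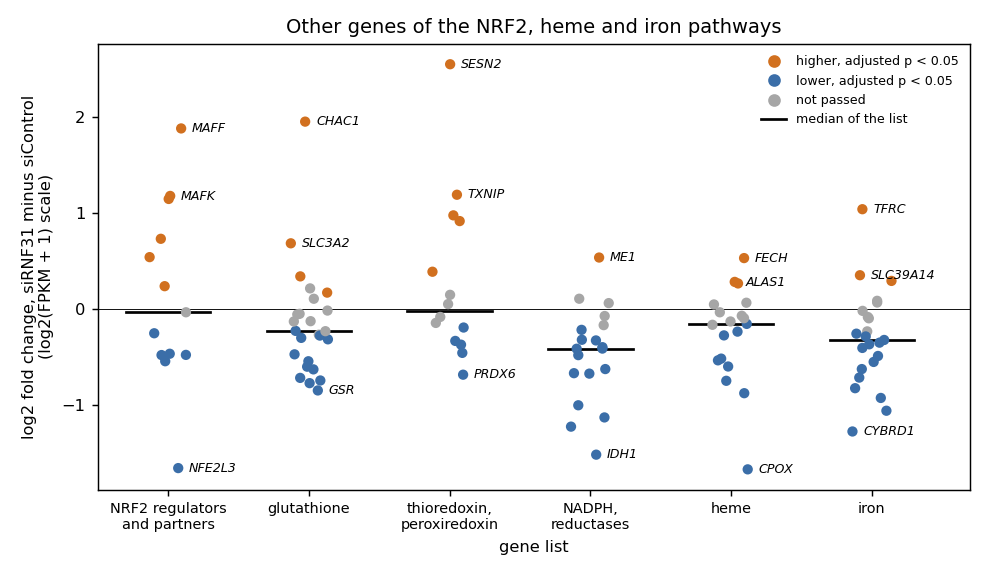
Log2 fold change (siRNF31 minus siControl, log2(FPKM + 1) scale) of each tested gene in the 6 pathway lists, without the 9 genes themselves; points are genes coloured by call, lines are list medians, and the horizontal spread within a list has no meaning. The NADPH and reductase list lies mostly below 0, with 14 of 19 genes called lower (73.7%, against 36.5% of all genes tested). MAFF, CHAC1 and SESN2 stand well above the rest of their lists.

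Regulators and partners of NRF2 moved in both directions, with 6 of 13 tested genes called higher and 6 called lower (median -0.03 on the log2 scale). That is 46.2% each, against the background of 26.6% higher and 36.5% lower. All 3 small MAF genes rose. MAFF measured 24.07, 21.46 and 21.25 FPKM in siControl and 80.69, 81.94 and 90.64 in siRNF31, a ratio of means of 3.79 (log2 fold change 1.88, limma adjusted p = 1.99e-07). MAFK rose from 20.6 ± 0.994 to 47.7 ± 1.40 FPKM and MAFG from 15.6 ± 0.306 to 18.6 ± 0.807. BACH1, the repressor of HMOX1, rose as well, from 7.42, 9.72 and 9.99 FPKM in siControl to 23.92, 22.74 and 17.12 in siRNF31 (log2 fold change 1.14, adjusted p = 1.43e-04). HMOX1 and the transcript of its repressor were both higher in the same libraries. KEAP1 and the ligase subunits it works with fell, with KEAP1 from 39.7 ± 2.14 to 27.0 ± 2.12 FPKM, CUL3 from 23.1 ± 0.571 to 19.3 ± 0.297 and RBX1 from 69.1 ± 6.89 to 49.8 ± 3.64. Another ligase arm also restrains NRF2. Of its genes, GSK3B, a kinase that marks NRF2 for the adaptor BTRC, rose from 8.78 ± 0.626 to 15.2 ± 0.940 FPKM (log2 fold change 0.73), and BTRC did not pass (3.59 ± 0.101 and 3.49 ± 0.186, adjusted p = 0.69). SQSTM1, the autophagy receptor p62 that binds KEAP1, fell from 422 ± 20.7 to 303 ± 17.99. Among relatives of NFE2L2, NFE2L3 fell from 9.79 ± 0.172 to 2.44 ± 0.131 FPKM (log2 fold change -1.65, adjusted p = 2.07e-07) and NFE2L1, a regulator of proteasome genes, rose from 33.0 ± 0.809 to 48.5 ± 0.877.

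Genes of glutathione supply, use and export were lower in 12 of 25 tested and higher in 4 (median log2 fold change -0.23). The shares were 48% lower and 16% higher, against the background of 36.5% and 26.6%. GSR, which regenerates reduced glutathione, fell from 68.0 ± 0.863 to 37.4 ± 1.21 FPKM, a log2 fold change of -0.84 (limma, adjusted p = 2.21e-06). The 4 tested exporters of the ABCC family fell, with ABCC1 from 18.6 ± 0.773 to 10.7 ± 0.589. GSTM4, a glutathione transferase, fell from 23.8 ± 1.37 to 13.6 ± 1.52, and its close paralogs make that value uncertain. The largest rise was that of CHAC1, an enzyme that degrades glutathione and a known ATF4 target, from 11.5 ± 0.954 to 47.2 ± 4.14 FPKM (log2 fold change 1.95). SLC3A2, the heavy chain of the cystine transporter and of other amino acid transporters, rose from 249 ± 17.0 to 400 ± 22.5. GLRX, glutaredoxin, rose from 27.3 ± 1.10 to 34.8 ± 2.56. The light chain SLC7A11, also counted among NRF2 and ATF4 targets, measured 43.27, 56.88 and 64.53 FPKM in siControl and 72.27, 71.62 and 48.42 in siRNF31, so the groups overlapped (adjusted p = 0.32).

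Thioredoxin and peroxiredoxin genes moved in both directions, with 5 of the 14 genes called in each (median -0.01 on the log2 scale). That is 35.7% each, near the background of 26.6% higher and 36.5% lower. SESN2, a stress-induced sestrin and an ATF4 target, had the largest rise, from 6.61 ± 0.442 to 43.3 ± 1.65 FPKM, a log2 fold change of 2.54 (limma, adjusted p = 4.19e-08). TXNIP, an inhibitor of thioredoxin, rose from 2.03 ± 0.317 to 5.87 ± 0.126. Of the 6 peroxiredoxins, PRDX1 and PRDX4 were higher and PRDX2, PRDX3 and PRDX6 lower. PRDX4, the peroxiredoxin of the endoplasmic reticulum, rose from 30.4 ± 3.04 to 60.7 ± 5.73 FPKM, and PRDX6 fell from 88.5 ± 4.52 to 54.8 ± 3.25. The mitochondrial pair TXN2 and TXNRD2 fell, by 0.45 and 0.37 on the log2 scale.

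The list of NADPH supply and of carbonyl, quinone and peroxide removal had 14 of 19 tested genes lower and 1 higher (median log2 fold change -0.41). That is 73.7% lower and 5.26% higher, against the background of 36.5% and 26.6%. PGD and TALDO1 of the pentose phosphate pathway fell, from 120.0 ± 7.23 to 96.1 ± 5.699 and from 147 ± 9.69 to 112 ± 8.45 FPKM, and TKT did not pass (adjusted p = 0.49). IDH1, the cytosolic isocitrate dehydrogenase, fell from 45.9 ± 0.775 to 15.5 ± 0.101 FPKM, a log2 fold change of -1.51 (limma, adjusted p = 1.19e-07). The aldo-keto reductases AKR1C1, AKR1C2 and AKR1C3, among the human genes most responsive to NRF2, were lower, with AKR1C3 from 38.1 ± 3.76 to 16.9 ± 1.81. Their coding sequences are similar, to a degree that differs by pair, so how reads were divided among them is uncertain. ME1, malic enzyme and another NADPH source, was the gene that rose, from 15.3 ± 0.246 to 22.6 ± 1.00.

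In heme metabolism, 9 of 19 tested genes were lower and 3 higher (median log2 fold change -0.15). These were 47.4% and 15.8%, against the background of 36.5% lower and 26.6% higher. Enzymes of heme synthesis moved in both directions. ALAS1 and FECH, the first and the last step, were higher, and ALAD, UROS, UROD, CPOX and PPOX, which act between them, were lower. ALAS1, the rate-limiting enzyme, rose from 39.5 ± 2.68 to 48.3 ± 2.47 FPKM, a log2 fold change of 0.28 (limma, adjusted p = 0.0057), and FECH, which inserts iron, from 4.84 ± 0.140 to 7.44 ± 0.403. CPOX, coproporphyrinogen oxidase, measured 69.58, 70.78 and 70.97 FPKM in siControl and 21.18, 22.11 and 21.36 in siRNF31, the largest fall of the list (log2 fold change -1.66, adjusted p = 8.49e-08). UROD fell from 83.1 ± 5.26 to 49.2 ± 1.81 and PPOX from 3.96 ± 0.410 to 1.72 ± 0.395. Among the biliverdin reductase genes, BLVRB rose from 42.4 ± 2.34 to 51.5 ± 6.85 FPKM (limma, adjusted p = 0.034). That call was lost when replicate 2 or replicate 3 of either group was left out, with an adjusted p from 0.064 to 0.094. BLVRA, the other biliverdin reductase, did not pass (44.7 ± 3.96 and 39.8 ± 2.10, adjusted p = 0.087).

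Iron genes were lower in 14 of 23 tested and higher in 3 (median log2 fold change -0.32). The shares were 60.9% lower and 13.04% higher, against the background of 36.5% and 26.6%. TFRC, the transferrin receptor, measured 134.14, 151.37 and 160.81 FPKM in siControl and 330.19, 322.62 and 268.22 in siRNF31, without overlap. Its mean doubled, with a ratio of 2.06 (log2 fold change 1.04, limma adjusted p = 3.11e-05). The metal transporters SLC39A14 and SLC39A8 rose from 121 ± 9.27 to 154 ± 12.1 and from 7.22 ± 0.348 to 9.08 ± 0.385 FPKM. Other importers fell, with SLC11A2, the divalent metal transporter DMT1, from 11.9 ± 0.861 to 9.36 ± 0.917 and the mitochondrial iron importer SLC25A37 from 36.8 ± 1.75 to 24.9 ± 0.472. Its paralog SLC25A28 fell from 16.5 ± 1.67 to 13.4 ± 1.37. Ferrireductases that work with iron uptake fell, among them CYBRD1 from 16.1 ± 1.21 to 6.08 ± 0.296 (log2 fold change -1.27) and STEAP3 from 43.6 ± 0.735 to 24.3 ± 0.756. PCBP1, a chaperone that delivers iron to ferritin, fell from 235 ± 12.2 to 113 ± 3.67, and NCOA4, which directs ferritin to lysosomes, from 45.3 ± 3.53 to 32.1 ± 2.55. ISCU, the scaffold of iron-sulfur cluster assembly, fell from 60.4 ± 5.22 to 31.4 ± 2.55. Of the iron regulatory proteins, ACO1 fell from 28.8 ± 0.905 to 22.4 ± 0.639 FPKM, and IREB2 measured 10.6 ± 1.59 and 8.85 ± 1.15 and did not pass (adjusted p = 0.12). SLC40A1, the iron exporter ferroportin, was at 0.05, 0.03 and 0.08 FPKM in siControl and 0.20, 0.19 and 0.18 in siRNF31, below the filter, and was not tested. The transcripts of FTL and TFRC were both higher. Whether the loop letters printed for FTL have a part in either was not tested, and no TFRC sequence is printed.

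**Figure D4:**
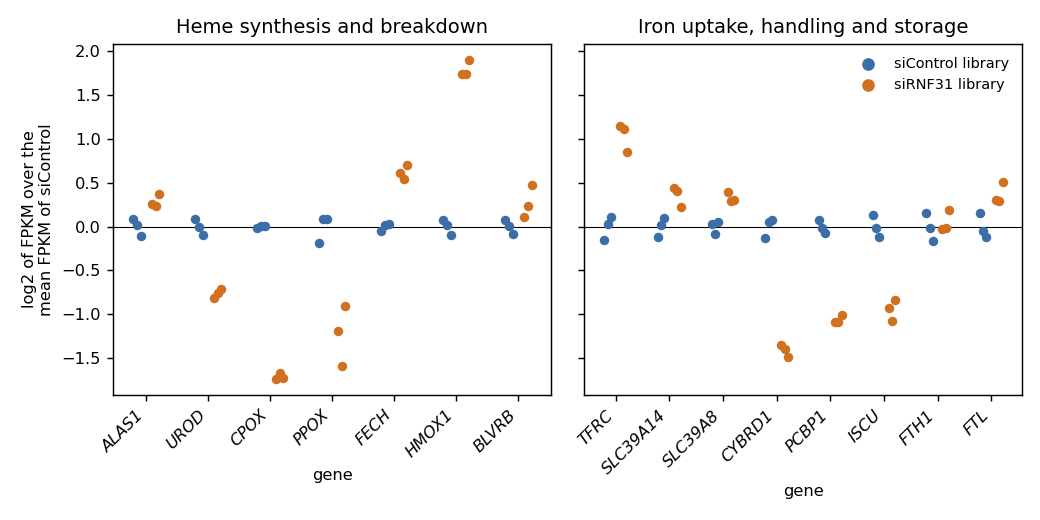
Log2 of FPKM over the siControl mean for genes of heme (left) and iron (right) metabolism; each point is a library, 3 per group. The left panel shows ALAS1 and FECH above 0, UROD, CPOX and PPOX below 0 and HMOX1 near 1.8; the right panel shows TFRC near 1, CYBRD1 and PCBP1 below -1, and the overlap of the FTH1 groups beside the separation of FTL.

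The promoter letters can be set against all tested genes, with no test made. Of 1818 tested genes with a window that holds TGACNNNGC, 27.2% were higher and 36.3% lower, with a median log2 fold change of -0.05. Of 7549 other tested genes with a window, 26.3% were higher and 36.2% lower, with a median of -0.06. A match is a string of letters, not a bound site, and elements outside the window were not searched.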

How the data were processed

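RNA-seq libraries of MDA-MB-231 cells, 3 siControl and 3 siRNF31, were prepared by BGISEQ-500 protocols per the labels. The authors deposited one table per library with FPKM to 2 decimals, per the file headers. The aligner, the quantification program and the genome build were not given in the sources used here. Read counts were not derived, so depth is unknown and no counting interval is given; FPKM sums ran from 421755 to 463457. FPKM is relative, so a gene that takes a larger share lowers the others, and lengths depend on the transcript model.

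The filter kept genes that reached 1 FPKM in 3 or more of the 6 libraries (11346 of 17645). Groups were compared on log2(FPKM + 1) with limma 3.58.1 in R 4.3.3 (intensity trend, robust moderation, two-sided, Benjamini-Hochberg over all genes tested, called under 0.05). Fold changes on this scale understate low genes. Ratios of 1 value per library used exact permutation tests. Members and lists were chosen with earlier results of these data known. From each list the 3 largest called changes per direction with mean FPKM of at least 2 were named; for HMOX1, the 3 nearest profiles among genes with mean FPKM of at least 5. Other list genes named, and the groups of enzymes or paralogs counted within a list, were chosen after their values were seen; some genes the rule names are not reported here. Alternatives were a pseudocount of 0.1, no filter, median of ratios scaling, no trend, a replicate block, leaving out each library or 2 together, and a common FPKM sum, added after seeing the data. Promoter windows came from RefSeq (GRCh38.p14) matched by Gene ID. Tables and figures were made in Python 3.11.15 with pandas 2.3.3, matplotlib 3.10.9, numpy 2.4.6 and scipy 1.17.1.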

Additional observations from a re-analysis of the deposited data

How the results depend on the processing

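HMOX1 and GCLM kept their direction and their call under each of the 13 alternatives, with log2 fold changes from 1.73 to 1.82 and from -0.37 to -0.27 (limma, adjusted p at most 4.80e-05 and 0.025). Of the 34 pathway genes named by the rule, 33 did the same, and the exception was BLVRB. With the replicate number as a block, 1 member was higher and 1 lower, since FTL (adjusted p = 0.056) and GCLC (adjusted p = 0.068) lost their calls, and 2480 genes were higher and 3497 lower in all. Deviations of same-numbered libraries had correlations of -0.57, 0.12 and -0.63, and not every library correlates best with its own number. Deviations from the mean of 3 libraries depend on each other, so these values cannot show whether the numbers pair the libraries. Leaving out each library in turn gave 1 to 2 members lower, 1 of them without siControl replicate 2. BLVRB also lost its call with no filter (adjusted p = 0.061) and with the block (adjusted p = 0.087). Directions near 0 turned. With a common FPKM sum NFE2L2 had a log2 fold change of -0.0069 and NQO1 of -0.0069, and leaving out single libraries gave -0.0105 to 0.0291 for NFE2L2, -0.0224 to 0.0528 for NQO1 and -0.0199 to 0.136 for FTH1. The cause was not tested. The depth is unknown, so what it limits for genes of low FPKM cannot be stated.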
